A study of Mus musculus with 4 samples.

Results

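Glutathione S-transferases (GSTs) are described here through 10 genes of the cytosolic family, spread over 4 classes. The alpha class is represented by Gsta2, Gsta3 and Gsta4, the mu class by Gstm1, Gstm2, Gstm3 and Gstm4, the pi class by Gstp1 and the theta class by Gstt1 and Gstt3. Members were taken by gene name from the probe annotation of the array, which gave 18 probes out of 39429 different ones, and 10 of the 22327 genes that could be named. All 18 probes are accounted for below, each apart.

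Cytosolic GSTs are dimeric enzymes that join the thiol of the tripeptide glutathione to electrophilic compounds, among them products of lipid peroxidation and drug metabolites. The conjugates leave the cell through membrane transporters and are trimmed to mercapturic acids for excretion. Liver is the classical tissue of this pathway, and several GST genes are known there as targets of the oxidant-sensing factor NRF2 and of the drug-sensing nuclear receptors CAR and PXR. Cysteine for glutathione can be drawn from methionine through the transsulphuration pathway, which links these enzymes to the methionine cycle named in the title of the series.

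The 4 groups were liver labelled Pnpla7-/-, wild-type (WT) liver, white adipose tissue (WAT) labelled Pnpla7-/- and WT WAT. All came from C57BL/6N mice aged 4 weeks, and Pnpla7 encodes a lysophospholipase. A single one-colour array stood for each group and held RNA pooled in equal parts from 5 animals, so differences have no replicate check, no test across animals was made, and precision is limited by having so few arrays. The sources used here do not give the fat depot, the sex of the animals or the disrupted part of Pnpla7. The extraction text names livers for all samples. In bulk tissue, fewer cells of a type and less RNA per cell cannot be told apart.

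The labels were checked first. The single Pnpla7 probe was nearly level between the livers (log2 ratio -0.18) and lower in the WAT labelled knockout (log2 ratio -0.99), and a probe outside the disrupted part checks nothing. The arrays are therefore called labelled knockout throughout. Among measured genes, 16 of 17 hepatocyte markers were at least 2-fold lower in WAT than in liver in each genotype. Adipocyte markers were at least 2-fold higher in WAT for 10 of 10 genes in the labelled knockouts and 11 of 11 in WT. Over all measured genes, WAT and liver differed by 2-fold or more for 31.4% in the labelled knockouts and 33.7% in WT. The share of spots well above background lay between 65.5% and 72.6%. None of the 27 spots of the members was saturated or set aside as an outlier (0 on every array).

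Levels below are the processed signal divided by the 75th percentile of the same array, and ratios are on the log2 scale. A probe was measured in a pair of arrays when it was well above background on both, and a ratio was counted when it reached 2-fold. The error printed with a ratio comes from the scanner software's error model, about 0.20 for a bright probe. The pooled SD of the ratio between probes for one gene was 0.20 in the liver pair and 0.23 in the WAT pair. Both errors cover spots and probes only, not animals, and levels of different probes are not compared with each other.

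The probes decide what each value stands for, and those that carry the main results are shown 5′ to 3′ as designed on the array, with positions on the mm9 build. The Gsta2 probe starts at base 766 of its transcript and lies at chr9:78178856-78178915 on the minus strand, and its first 30 bases are shown. The Gstt3 probe starts at base 1714 and lies at chr10:75236966-75237025 on the minus strand, also shown by its first 30 bases. Gsta4 has a probe of 60 bases printed as 10 spots, with bases in 2 exons between chr9:78046172-78047344 on the plus strand. A Gstp1 probe starting at base 117 is placed at chr19:4037306-4037365 on the minus strand, and its accessions in the annotation name Gstp2 as well as Gstp1.
Gsta2 probe: gccacagatactggcctctaattgtttgca
Gstt3 probe: gttgcttggtatgtcctgactttccaaatt
Gsta4 probe: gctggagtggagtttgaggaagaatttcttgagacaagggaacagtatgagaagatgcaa
Gstp1 probe at base 117: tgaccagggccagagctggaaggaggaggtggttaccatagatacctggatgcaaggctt

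Paralogs of the family resemble each other, so probes were compared without gaps. Each member probe was set against those for other genes among the 38 probes whose gene name begins with Gst. The microsomal Mgst genes and Hpgds were not part of this comparison. For 15 of the 18 member probes none of the compared probes shared more than 15 bases. Whole transcripts were not searched, so few shared bases cannot show that a probe reports its gene alone. Close matches were found in a pair of Gstm1 and Gstm3 probes and in a pair of Gstp1 and Gstp2 probes, given as the aligned stretch with matching bases in capitals. The Gstm1 stretch (bases 34 to 60 of the probe at transcript base 1225) and the Gstm3 stretch (bases 1 to 27 of the probe at transcript base 1141) had 25 of 27 bases in common. The Gstp1 stretch (bases 1 to 28 of the probe at transcript base 349) and the Gstp2 stretch (bases 26 to 53 of the probe at transcript base 331) had 25 of 28 in common. A shared stretch is a description of the probes, and its part in any value was not tested.
Gstm1 stretch: TCATcTACAATAAAGtCTGAAACACAC
Gstm3 stretch: TCATgTACAATAAAGcCTGAAACACAC
Gstp1 stretch: CGCGGCAAATATGtCACCcTcATCTACA
Gstp2 stretch: CGCGGCAAATATGgCACCaTgATCTACA

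**Figure D1:**
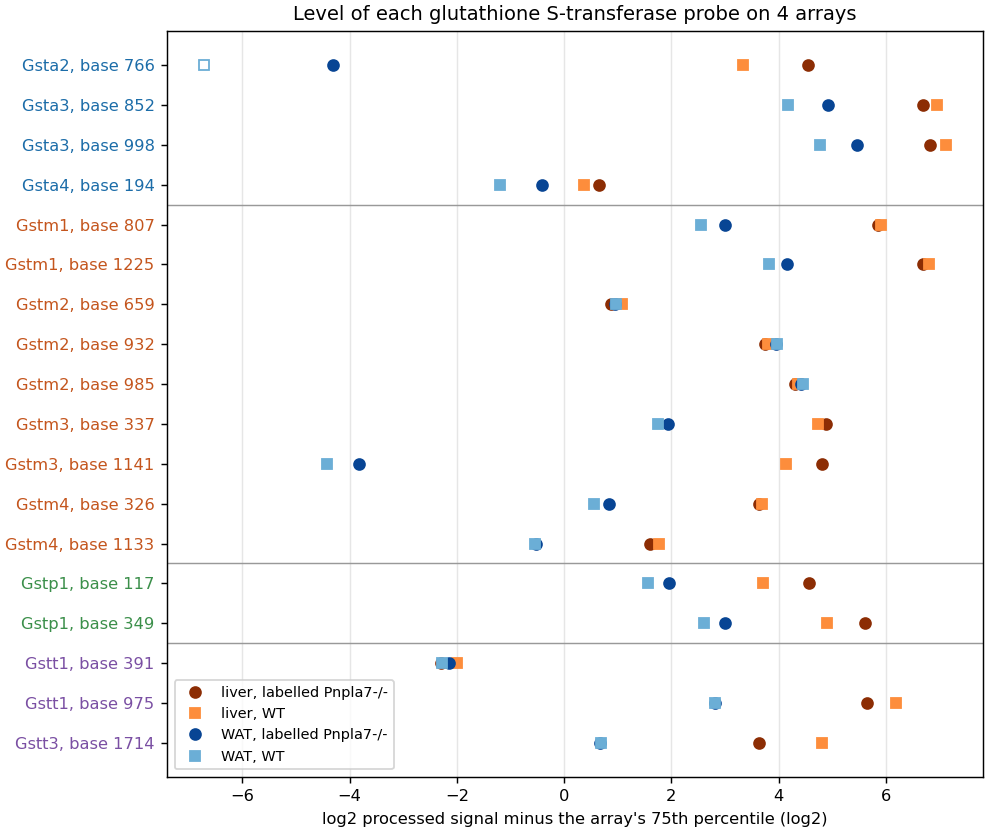
Level of each of the 18 member probes on the 4 arrays, on the log2 scale relative to the 75th percentile of its array. Each row is a probe named by gene and transcript base, colours of the row names mark the class, and the open symbol (Gsta2 in WT WAT) is not well above background. Most probes have both liver arrays to the right of both WAT arrays, while the 4 symbols of each Gstm2 probe lie together.

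In the liver labelled knockout, Gsta2 was 2.31-fold higher than in WT liver and Gstt3 was 2.27-fold lower, and the other 16 probes stayed within 2-fold. Gsta2 encodes an alpha class subunit that acts on organic hydroperoxides, and Gstt3 a theta class enzyme. Past the 2-fold limit were thus 1 of 18 probes upward and 1 downward, where 1.42% of all 25128 measured probes lay upward, 0.86% downward and 2.28% in either direction. The median log2 ratio was -0.06 over the member probes and -0.04 over all measured probes.

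The alpha class was not uniform in liver. Gsta2 had 23.2 times the 75th percentile in the labelled knockout, against 10.1 times in WT liver, a log2 ratio of 1.21 with an error of 0.20. Its lone probe means that no second probe bears on the value. Gsta3, a major alpha subunit of mouse liver, had 103 and 113 times at its probes in the labelled knockout, against 124 and 138 times in WT. Its log2 ratios of -0.26 and -0.29 were slightly larger than the error of 0.20. Gsta4 encodes the subunit best known for conjugating 4-hydroxynonenal, an aldehyde from oxidised fatty acids. It had 1.56 times in the labelled knockout, against 1.29 times in WT, a log2 ratio of 0.28. Its 10 spots had an SD of 0.035 in the labelled knockout and 0.055 in WT liver on the log2 scale, smaller than the difference, but the difference remained far from 2-fold.

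Gstp1 was higher in the liver labelled knockout at both of its probes, though short of 2-fold. It encodes a pi class enzyme, which also binds and inhibits the stress kinase JNK. At transcript base 117 it had 23.5 times the 75th percentile in the labelled knockout, against 13 times in WT liver (log2 ratio 0.85). At base 349 it had 48.6 times in the labelled knockout, against 30 times in WT liver (log2 ratio 0.70). The ratios of the 2 probes lay within the spread between probes of a gene. Of the Gstp2 probes, the one that shares the stretch shown above had a log2 ratio of 0.78 and the other one 0.20. Gstp3, also of the pi class, had -0.26 in liver.

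The theta members were lower in the liver labelled knockout at all 3 probes. Gstt3 had 12.4 times the 75th percentile in the labelled knockout, against 28.1 times in WT liver, a log2 ratio of -1.18 with an error of 0.20. With quantile normalization in place of percentile scaling this ratio was -0.97 and no longer reached 2-fold. Gstt1, which encodes the theta enzyme known for acting on small halogenated alkanes, had 50.2 times at transcript base 975 in the labelled knockout, against 72.6 times in WT liver (log2 ratio -0.53). Its other probe, designed on an Ensembl transcript and placed at chr10:75259864-75259923, was dimmer, with 0.205 times in the labelled knockout, against 0.250 times in WT liver (log2 ratio -0.29).

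The mu members were close to level in liver, with 7 of 9 probes between 0 and -0.20 on the log2 scale. Gstm1, the major mu enzyme of mouse liver, had 57.8 and 103 times the 75th percentile in the labelled knockout, against 60.3 and 112 times in WT. The brighter of these probes, at transcript base 1225, is placed by the scanner file at chr5:117082490-117082549, away from the other mu probes on chromosome 3, which leaves its target uncertain. The gene ratio of -0.09 turned to 0.14 with quantile normalization. Gstm2 had log2 ratios of -0.20, -0.07 and -0.05 at its 3 probes, and Gstm4 had -0.05 and -0.16. Gstm3 was the exception, and its probes did not agree. At transcript base 1141 it had 28.1 times in the labelled knockout, against 17.7 times in WT liver (log2 ratio 0.67). At base 337 it had 29.6 times in the labelled knockout, against 26.5 times in WT liver (log2 ratio 0.16).

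Lists of cell type markers were read on the same liver arrays. Of 17 measured hepatocyte markers 0 reached 2-fold, against 2.64% of all measured genes, and their median log2 ratio was -0.28. Their summed level was 2455 in the labelled knockout, against 2931 in WT liver. Erythroid markers, from blood cell precursors, had a summed level of 20.1 in the labelled knockout, against 33.3 in WT liver, with 6 genes well above background in each. Adipocyte markers summed to 70.0 in the labelled knockout, against 112.9 in WT liver, though their median log2 ratio was 0.03. Of 10 measured adipocyte markers 2 were higher and 1 lower by 2-fold, against 1.75% and 0.886% of all measured genes. Epithelial markers summed to 93.3 in the labelled knockout, against 70.0 in WT liver, with 0 of 10 higher and 1 lower. Their median log2 ratio was 0.13. That list includes the keratins Krt8 and Krt18, and the genes that carry its sum were not read apart. Biliary markers, which share Krt19, Epcam and Cldn4 with it, summed to 6.71 in the labelled knockout and 6.84 in WT liver. Of 6 measured biliary markers 0 reached 2-fold, with a median log2 ratio of -0.14. Macrophage markers summed to 30.4 in the labelled knockout and 30.3 in WT liver. The part of these lists in the GST values was not tested.

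**Figure D2:**
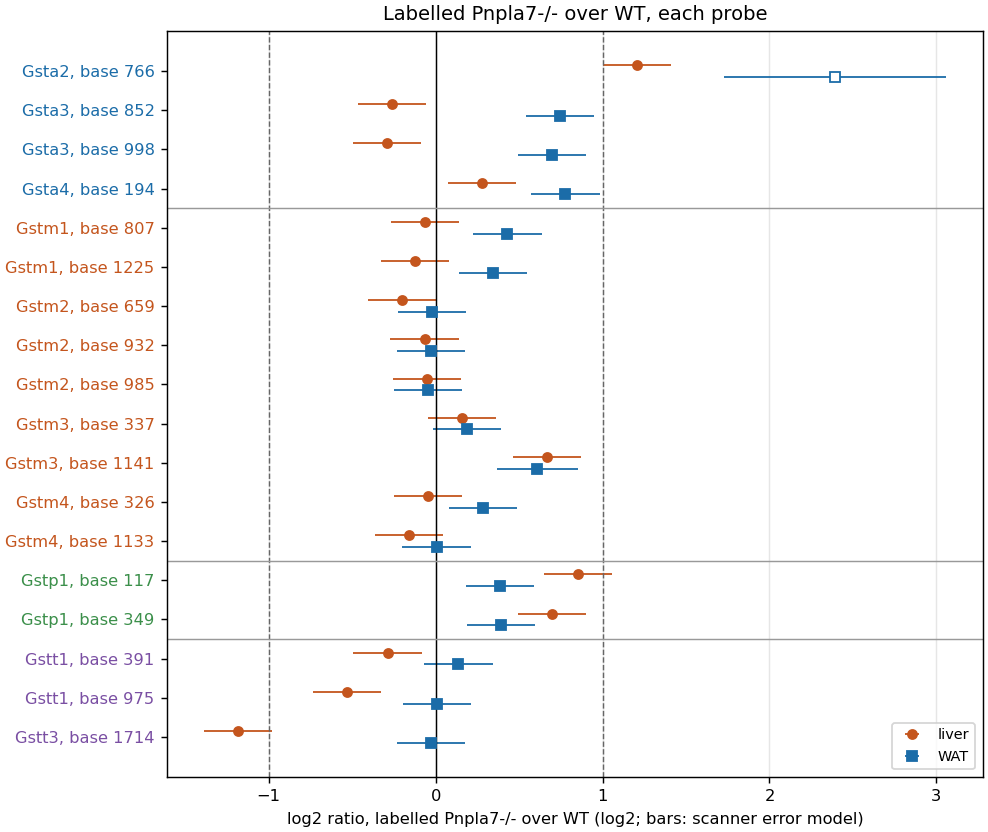
Log2 ratio of labelled Pnpla7-/- over WT for each of the 18 member probes, with liver as circles and WAT as squares. Bars are the scanner software's error, dashed lines mark 2-fold, and the open square (Gsta2 in WAT, dim on the WT array) is not a measured ratio. Gsta2 and Gstt3 in liver lie past the dashed lines, and 17 of the WAT values lie inside them.

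In WAT, 0 of 17 measured member probes reached 2-fold in either direction, against 1.95% of 26210 measured probes that were higher, 1.76% that were lower and 3.71% in either direction. Of the 17 ratios 13 were above 0, against 14291 of the 26210 measured probes, and several of the 17 probes share a gene. The median of the member ratios was 0.29, against 0.03 over all measured probes.

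Gsta3 and Gsta4 had the largest measured ratios of the members in WAT. Gsta3 had 30.3 and 44.2 times the 75th percentile in the labelled knockout, against 18.1 and 27.3 times in WT WAT, and its log2 ratios were 0.74 and 0.70. Gsta4 had 0.750 times in the labelled knockout, against 0.438 times in WT WAT, a log2 ratio of 0.78, with an SD over its 10 spots of 0.044 in the labelled knockout and 0.060 in WT. Each of these differences was more than 3 times the error of 0.20, and each stayed short of 2-fold.

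Gsta2 could be given only as a bound in WAT. Its probe had 0.0503 times the 75th percentile in the labelled knockout, which was well above background, and 0.00958 times in WT WAT, which was not well above background. Set against the lowest signal well above background on the WT array, Gsta2 was at least 3.98-fold higher in the labelled-knockout WAT. With normexp background correction the bound was 1.54-fold, so its size depends on how background is handled. Hepatocyte markers were read on the same WAT arrays. Their summed level was 181 in the labelled-knockout WAT, against 196 in WT WAT, and all 17 gave signal well above background in each pool. Past 2-fold, 10 of them were lower in the labelled knockout and 0 were higher, against 2.01% and 2.16% of all measured genes. The median log2 ratio of these markers was -1.17, and their part in the Gsta2 value was not tested.

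The mu, pi and theta members had smaller ratios in WAT than Gsta3 and Gsta4. Gstm1 had 7.95 and 17.9 times the 75th percentile in the labelled knockout, against 5.90 and 14.1 times in WT WAT, with log2 ratios of 0.43 and 0.35. Gstm3 had log2 ratios of 0.19 and 0.61, and the larger one rests on dim signals of 0.0708 times in the labelled knockout and 0.0464 times in WT WAT. Gstm4 had 0.29 and 0.01, and the 3 probes of Gstm2 lay between -0.04 and -0.02. Gstp1 had 3.85 and 8.02 times in the labelled knockout, against 2.95 and 6.11 times in WT WAT, and both probes gave a log2 ratio of 0.39. Gstt1 and Gstt3 were level, with 7.06 times in the labelled knockout and 7.03 times in WT WAT for Gstt1 at base 975, and 1.59 times and 1.62 times on the same arrays for Gstt3.

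Several marker lists of other tissues differed between the WAT pools. Over all measured genes in WAT, 2.16% were at least 2-fold higher in the labelled knockout and 2.01% at least 2-fold lower. Skeletal muscle markers summed to 74.1 in the labelled-knockout WAT, against 10.1 in WT WAT, and 12 of 14 genes were higher by 2-fold or more. Brown fat markers summed to 226 in the labelled knockout, against 66.4 in WT WAT, and 7 of 10 were higher by 2-fold or more. Epithelial markers summed to 8.92 in the labelled knockout, against 2.62 in WT WAT, and 4 of 9 measured genes were higher by 2-fold or more. Adipocyte markers had a median log2 ratio of 0.16, with 1 of 15 genes at least 2-fold lower. Macrophage markers summed to 10.6 in the labelled knockout, against 15.2 in WT WAT, with a median log2 ratio of -0.71. Of 10 measured macrophage markers 1 was higher and 1 lower by 2-fold or more. The part of these lists in the GST values was not tested.

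The ratio of labelled knockout over WT differed in sign between tissues for several members, most widely for Gsta3. Its log2 ratio was 0.72 in WAT and -0.28 in liver, a difference of 0.997, and both of its probes showed it. Gstm1 (0.39 in WAT and -0.09 in liver), Gstm4 (0.15 and -0.10) and Gstt1 (0.07 and -0.41) also differed in sign, each with 1 ratio or both inside the error of 0.20. Gstt3 had -0.03 in WAT and -1.18 in liver, a difference of 1.15. For Gsta4, Gstm1 and Gstt1 the WAT ratio was higher than the liver ratio by 0.50, 0.48 and 0.48, and for Gstp1 it was lower by 0.38 (a difference of -0.38). With 1 array a group these differences could not be tested. With quantile normalization the difference was 0.59 for Gsta3, whose liver ratio was then -0.04 and inside the error, and 0.19 for Gstm1.

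Most members were lower in WAT than in liver. In WT mice, 13 of 17 measured member probes were at least 2-fold lower in WAT than in liver and 0 were higher, against 14% of 24637 measured probes that were lower and 16.3% that were higher. In the labelled-knockout mice 14 of 18 were at least 2-fold lower and 0 higher, against 12.1% of measured probes lower and 16.3% higher. The median log2 ratio of WAT over liver was -2.56 for the member probes in the labelled knockouts and -2.34 in WT, where all measured probes had 0.13 and 0.02. In either direction 2-fold was passed by 28.4% of probes in the labelled knockouts and 30.3% in WT.

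**Figure D3:**
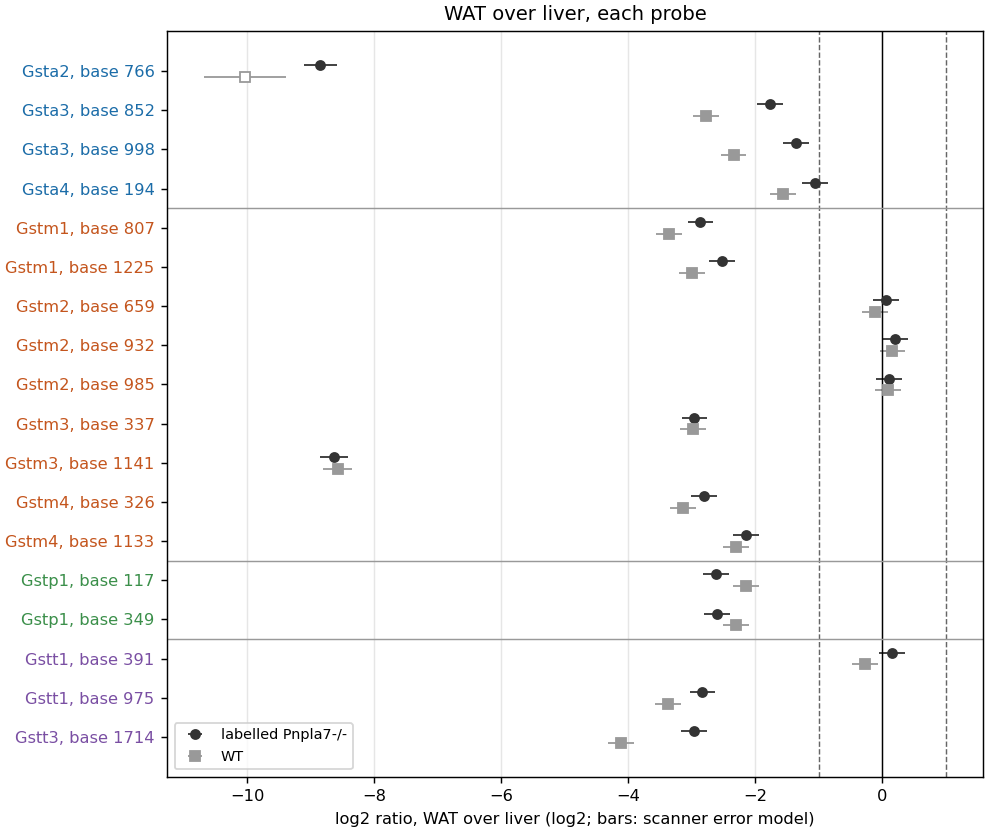
Log2 ratio of WAT over liver for each member probe, in labelled Pnpla7-/- mice (circles) and in WT mice (squares). Bars are the scanner software's error, dashed lines mark 2-fold, and the open square (Gsta2 in WT) is dim in WAT. The Gstm2 probes and a Gstt1 probe lie between the dashed lines, and the Gstm3 probe at base 1141 lies far from the one at base 337.

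Under percentile scaling Gsta2 had the widest gap between tissues among the members, while the order of single probes under normexp is not given here. In the labelled knockouts it had 0.0503 times the 75th percentile in WAT and 23.2 times in liver, so it was 462-fold lower in WAT. In WT mice it was at least 796-fold lower in WAT than in liver, and at least 139.7-fold lower with normexp. Gsta3 was 2.95-fold lower in WAT in the labelled knockouts and 5.89-fold lower in WT, by the mean of its probes. Gsta4 was 2.08-fold and 2.95-fold lower in these genotypes. For Gsta3 and Gsta4 the gap was smaller on the labelled-knockout arrays, and the difference was not tested. For Gsta2 the genotypes cannot be ordered, since the normexp bound in WT is below the gap in the labelled knockouts under the same setting (log2 ratio -7.76).

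Gstm2 stood apart from the other mu members in being level between the tissues. Its probes had log2 ratios of WAT over liver of 0.07, 0.20 and 0.10 in the labelled knockouts and of -0.11, 0.16 and 0.10 in WT, at most 1.15-fold. The sign of the gene's mean ratio turned with the setting, so that no direction can be given. Gstm1 was 6.47-fold lower in WAT in the labelled knockouts and 9.03-fold lower in WT, and Gstm4 5.54-fold and 6.58-fold lower.

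The Gstm3 probes gave very different gaps. At transcript base 1141 the gene had 0.0708 times the 75th percentile in labelled-knockout WAT and 28.1 times in labelled-knockout liver (397-fold lower in WAT). In WT it had 0.0464 times in WAT and 17.7 times in liver (381-fold lower). At base 337, where the probe lies across exons between chr3:107769290-107770549, it was 7.76-fold lower in WAT in the labelled knockouts and 7.91-fold lower in WT. The probe at base 337 gave gaps of the size seen for Gstm1 and Gstm4, and which of the probes reports Gstm3 alone was not tested. The sequence at base 337 is given here because the reading of Gstm3 in fat rests on it.
Gstm3 probe at base 337: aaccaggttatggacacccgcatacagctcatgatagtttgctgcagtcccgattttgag

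Gstp1 was 6.08-fold lower in WAT than in liver in the labelled knockouts and 4.66-fold lower in WT. Gstt3 was 7.81-fold lower in the labelled knockouts and 17.4-fold lower in WT. Gstt1 depended on the probe. At base 975 it was 7.11-fold lower in WAT in the labelled knockouts and 10.3-fold lower in WT. At its dim probe on the Ensembl transcript the log2 ratio was 0.15 in the labelled knockouts and -0.27 in WT, close to the error of 0.21. That probe is printed below beside the first 30 bases of the one at base 975 (chr10:75246560-75246619, minus strand).
Gstt1 probe on the Ensembl transcript: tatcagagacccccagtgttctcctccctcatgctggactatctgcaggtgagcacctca
Gstt1 probe at base 975: actataatcactactttccccttgagtctg

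GSTs outside the members were counted in the same way. Of 19 measured genes outside the members, 0 reached 2-fold in liver, with a median log2 ratio of -0.11, against 2.64% of all measured genes past 2-fold in either direction and 1.75% upward. The largest were Hpgds (0.89), the haematopoietic prostaglandin D synthase, a sigma class GST, Gsto2 of the omega class (-0.71), Gstp2 (0.49), Gstz1 (-0.47), the zeta enzyme that isomerises maleylacetoacetate in tyrosine breakdown, and the microsomal Mgst1 (-0.32). In WAT 2 of 20 reached 2-fold, against 4.18% of all measured genes in either direction and 2.16% upward, with a median of 0.22. These were Hpgds, 2.89-fold higher, and Gstp3, 2.48-fold higher, and both were dim in WT WAT, at log2 levels of -5.14 and -5.23. With normexp neither reached 2-fold (log2 ratios 0.90 for Hpgds and 0.73 for Gstp3). Gstt4 (0.96) and Gstt2 (0.82) were near the limit in WAT, while Mgst2 had 0.63, Mgst1 0.61 and Clic1 -0.56.

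Of 11 measured genes of glutathione supply 0 were 2-fold different in liver, where 2.64% of all measured genes were, a share at which a list of this size may hold none. Their median log2 ratio was -0.04. Gclc and Gclm encode the catalytic and modifier subunits of the rate-limiting ligase. In liver Gclc had a log2 ratio of 0.13 and Gclm -0.17, both inside the error of 0.20. The largest belonged to Chac1 (-0.73), which degrades glutathione in the cytosol, to the transsulphuration enzymes Cbs (-0.51) and Cth (-0.46), and to glutathione synthetase, Gss (0.33). In WAT 1 of 11 reached the limit, against 2.16% of all measured genes upward and 4.18% in either direction. This was Oplah, the 5-oxoprolinase that returns glutamate to the cycle, 2.003-fold higher. It fell short of 2-fold under 3 of the settings tried. In WAT Gclm was at 0.58 and Gclc at 0.28.

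Among 16 genes of glutathione and thioredoxin redox reactions, 3 were at least 2-fold higher in the liver labelled knockout and 0 lower, with a median of 0.10, where 1.75% of all measured genes were higher. Srxn1, sulfiredoxin, which repairs overoxidised peroxiredoxins, was 2.65-fold higher, with a log2 level of 3.92 in the labelled knockout, against 2.51 in WT liver. The glutathione peroxidases Gpx2 (2.06-fold) and Gpx3 (2.03-fold) were just past the limit. With normexp Gpx2 had a log2 ratio of 0.35 and Gpx3 0.54, and with quantile normalization 0.98 and 0.95, so that neither reached 2-fold. G6pdx, which makes NADPH for glutathione reductase, had -0.90. In WAT 1 of 16 was at least 2-fold higher, against 2.16% of all measured genes. This was Gpx8, an endoplasmic reticulum peroxidase, at 2.37-fold, and Gpx3 followed with a log2 ratio of 0.92. The next largest ratios in WAT, of Gpx7 (-0.77) and Prdx6 (-0.45), pointed downward.

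Of 15 measured genes of conjugate export and mercapturate formation, 1 was at least 2-fold higher in liver, the exporter Abcc4 at 2.01-fold, and 0 were lower, against 1.75% and 0.886% of all measured genes. Abcc4 fell short of 2-fold with normexp (log2 ratio 0.72), quantile normalization (0.94) and median scaling (0.98). Acy3, which acts on mercapturates, had -0.67. In WAT 1 of 16 was higher and 1 was lower by 2-fold or more, against 2.16% and 2.01% of all measured genes. The higher was Nat8, the acetyltransferase of the last mercapturate step, at 3.01-fold, and the lower the exporter Abcc3 at 2.64-fold. Dpep2 (-0.85) and Acy3 (0.69) followed in WAT. The known regulators of GST genes were all within 2-fold in both tissues (0 of 16 measured in liver and 0 of 14 in WAT, where 2.64% and 4.18% of all measured genes passed it), with medians of -0.20 and 0.00. The CAR gene Nr1i3 had -0.44 in liver and -0.66 in WAT, the PXR gene Nr1i2 -0.31 in liver and Stat5b -0.61 in liver. The NRF2 gene Nfe2l2 had -0.21 in liver and 0.23 in WAT.

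**Figure D4:**
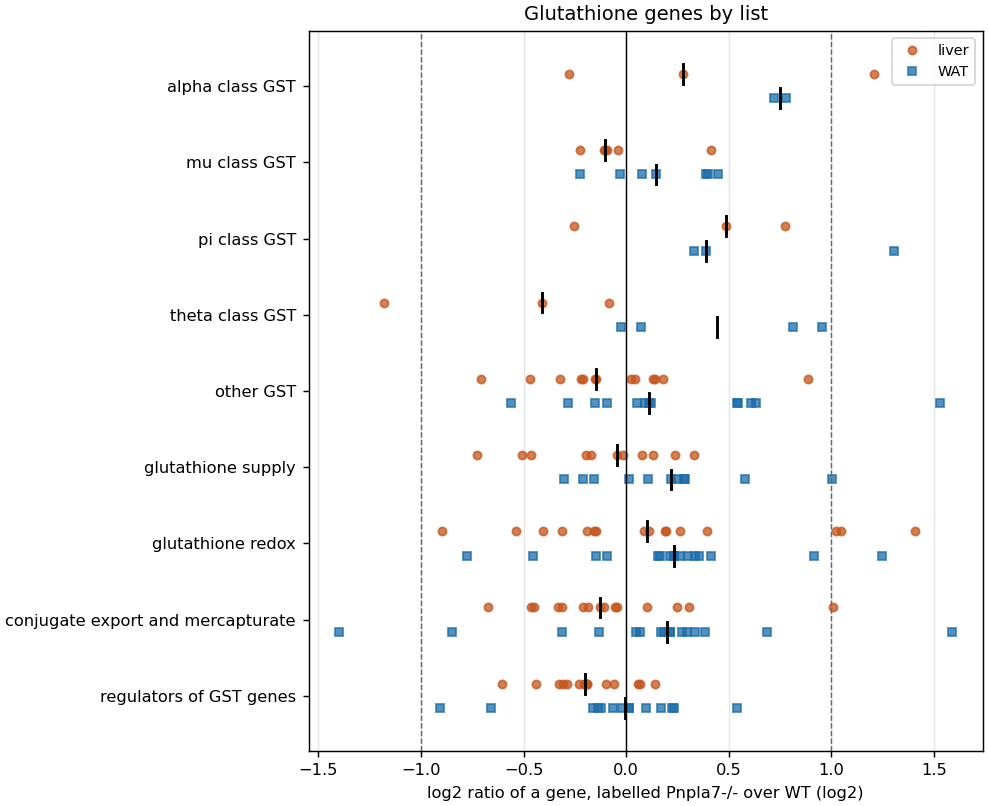
Log2 ratio of labelled Pnpla7-/- over WT for each measured gene of 9 glutathione lists, with liver as circles and WAT as squares. Black ticks are list medians and dashed lines mark 2-fold. Most genes lie inside the dashed lines, and Srxn1 in liver and Nat8 in WAT lie farthest to the right on their tissues' rows.

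Genes with a pattern like that of the 2 called members were sought among genes measured on all 4 arrays, by the distance between log2 levels after centring each gene on its own mean over the 4 arrays. Nearest to Gstt3 were Rhbg, an ammonium transporter (distance 0.38), Tk1 (0.39) and Lin7a (0.43), out of 14887 genes. Rhbg had a log2 ratio of -0.80 in liver and 0.25 in WAT. Nearest to Gsta2 were Igfbp1, a hepatic binding protein of insulin-like growth factors (0.88), Gjb2 (1.78) and Apoa4 (1.90), with ratios in liver of 0.77, 0.13 and 2.07. The Gsta2 distances include its WT WAT value, which was not well above background. A distance over 4 arrays is a description, and it is set mostly by the gap between the tissues.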

How the data were processed

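Per the file headers, the deposited scanner files hold spot intensity values from Agilent Feature Extraction (version 11.0.1.1, per the submitters' processing notes), processed by subtracting background and removing multiplicative trends, with no normalization between arrays. The authors' table of the whole series holds a ratio, the same processed signal divided by a constant of each array (1764, 1470, 1613 and 1690 for labelled-knockout liver, WT liver, labelled-knockout WAT and WT WAT), and served as an alternative. All 4 arrays were on 1 slide scanned at 1 time.

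Here control spots and outlier spots (79 to 110 outliers an array) were left out. Log2 processed signals were set relative to the 75th percentile of each array and averaged over the spots of a probe. Well above background required that flag on a share above 0.5 of the spots. A gene's ratio is the mean over its measured probes. A bound divides the bright value by the lowest signal well above background on the dim array, or by the dim probe's own signal if that was higher. Probes took names from a RefSeq table of GRCm38.p6, used for names only (27234 by accession, 3576 by symbol, 565 by synonym), and 8054 stayed unnamed.

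With 1 array a group no test was made. Named genes were all members, up to 4 genes of each list with the largest ratios in a tissue, and the 3 genes nearest to each member past 2-fold. Members and lists were chosen with earlier results of these data known. Gclc was named outside this rule, and liver values of Gclm and Nfe2l2 were added, after their values were seen. Alternatives were normexp (offset 50, limma 3.58.1 in R 4.3.3), quantile normalization, other scalings, no filter on dim probes, the brightest probe and a 1.5-fold limit. The calling step was tested on simulated data.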

Additional observations from a re-analysis of the deposited data

Results flagged for a closer look

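Gsta3 had log2 ratios of labelled knockout over WT that pointed opposite ways in the tissues, 0.72 in WAT and -0.28 in liver, with a WAT minus liver difference of 0.997. Each of its 2 probes was past the scanner software's error in both tissues. The difference between tissues was not tested, since each group had 1 array. With quantile normalization the liver ratio was -0.04 and the difference 0.59.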

How the results depend on the processing

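No paired analysis was possible because each group had 1 array and no label ties arrays to shared animals. Under normexp the median of all liver ratios was -0.19, against -0.04 as reported, and that of WAT over liver in WT was -0.25, against 0.02. Median scaling put WAT over liver at -0.06 in labelled knockouts and -0.23 in WT, against 0.13 and 0.02. The causes of the changes below were not tested. With quantile normalization 0 member probes were at least 2-fold lower in liver (Gstt3 at -0.97). Without the filter on dim probes 1 was higher in WAT (Gsta2), and at a 1.5-fold limit 4 were higher in liver and 4 in WAT. With normexp and with quantile normalization 1 redox gene, in place of 3, passed 2-fold in liver. The count of export and mercapturate genes in liver was 0 with normexp, quantile normalization and median scaling, and that of supply genes in WAT was 0 with normexp, quantile normalization and the percentile over probes seen on all arrays. The other 108 values of these counts and of the member medians stayed within 1.5 times the count or within the spread between probes of a gene, and no called gene ratio turned its sign. The Gsta2 bounds, recomputed after the data were seen, lay between 1.54 and 4.25-fold for labelled knockout over WT in WAT and between 139.7 and 949-fold for liver over WAT in WT, with both lowest values from normexp. Depth is not the measure for arrays: the 75th percentile was 193 to 271 times the negative controls, which leaves Gsta2 in WT WAT without a measured level.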

Other observations

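Glutathione genes outside the transferases were also read between tissues. Of 11 measured genes of glutathione supply, 8 were at least 2-fold lower in WAT than in liver in the labelled knockouts and 9 in WT, and 0 were higher in either. Cbs, the first enzyme of transsulphuration, had a log2 ratio of WAT over liver of -6.09 in the labelled knockouts and -6.85 in WT, and Cth, the next enzyme, -3.75 and -4.43. Gclc had -3.32 and -3.47. Across all measured genes, 13.7% were at least 2-fold lower in WAT in the labelled knockouts and 15.6% in WT, and 31.4% and 33.7% differed by 2-fold in either direction.

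Redox genes were divided. The secreted peroxidase Gpx3 was higher in WAT, with log2 ratios of 5.96 in the labelled knockouts and 6.07 in WT, as were Gpx8 (5.67 and 4.69), G6pdx (4.66 and 3.43) and Pgd (3.04 and 2.71), which supplies NADPH. The microsomal Mgst2 had 7.48 and 6.98. Gpx1, the cytosolic peroxidase, was lower in WAT (-1.94 and -2.25), and the export pump Abcc2 had -8.09 and -8.05. The genes named in these paragraphs were picked with their values in view.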
